A study of Rattus norvegicus with 12 samples.

Results

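Electroacupuncture given to rats after cerebral ischemia and reperfusion was compared with control rats that had no such operation, in messenger RNA of brain tissue. The 7 columns of the deposited count table named for these groups were taken, EA1 to EA4 and Sham1 to Sham3, of 11 columns in all. All rats are Sprague-Dawley, an outbred laboratory strain, and both groups were restrained for the same length of time. The electroacupuncture group had the MCAO/R operation, in which the middle cerebral artery is blocked and then reopened. A weak current was then passed through needles at the Tianfu, Chize, Kongzui and Taiyuan acupoints, which lie on the Lung Meridian of Hand-Taiyin along the foreleg. The control group was restrained without electroacupuncture, and its labels name no operation. The columns named Sham were taken as this group because it is the only one without the MCAO/R operation. The labels list 4 control samples, and the table has 3 control columns, so 1 control sample was not analysed here. The remaining 4 columns belong to operated rats that were restrained only, called the model below, and their values are given for orientation. The labels give no brain region, side, age or time after the operation, and do not say whether samples came from separate animals. Since the 2 groups differ by the operation and by the needles together, their parts in any difference cannot be told apart. The p-values below therefore rest on sample-to-sample spread alone, part of which may be technical.

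Blocking the middle cerebral artery starves the striatum and the overlying cortex of blood. In the injured tissue, neurons die, protein folding in the endoplasmic reticulum is disturbed, and microglia, the resident immune cells of the brain, take up debris and break it down in lysosomes. Astrocytes become reactive, blood cells can enter, and oligodendrocyte precursors multiply and can form new myelin. The title of the study places electroacupuncture in the setting of synaptic plasticity, the lasting adjustment of synapses by receptors, kinases and growth factors.

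No gene passed the adjusted threshold with edgeR, which with so few samples does not show that the groups are alike. At an adjusted p under 0.05, edgeR's quasi-likelihood test called 0 of 15487 genes (0%), with a smallest adjusted p of 0.52. At an unadjusted p under 0.05, the same test put 419 genes higher (2.71%) and 148 lower (0.956%) in the electroacupuncture samples. With total counts in place of TMM scaling factors, edgeR put 509 higher and 92 lower. DESeq2 on the same samples called 1 gene, LOC103690016, and put 651 higher and 183 lower at an unadjusted p under 0.05. Every electroacupuncture sample lay above every control sample for 926 genes (5.98%) and below every control sample for 755 (4.88%). The median log2 fold change over all genes was 0.01. Except for LOC103690016 with DESeq2, the differences below are therefore measured values that did not pass an adjusted threshold, and those of most named genes are given with every column.

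The 4 electroacupuncture columns were not alike. EA2 and EA3 were near-identical, since their squared difference had a median over genes of 1.35 times the sampling variance. They were counted as 1 sample by summing their counts, which leaves 3 electroacupuncture and 3 control samples. EA1 differed from the other electroacupuncture columns by 24.6 to 26.5 times the sampling variance and from the control columns by 25.7 to 29.4 times. From the model columns it differed by 18.9 (MCAO1) to 27.8 times (MCAO4). EA4 differed from EA2 and EA3 by 7.63 to 7.73 times, and from the control columns by 3.64 to 6.14 times. The control columns differed from each other by 4.74 to 5.53 times. EA4 was thus nearer to each control column than to EA2 or EA3, and EA1 was far from both groups. Total counts were 10246048 in EA1, 23835724 in EA2 and EA3 together, 10010379 in EA4, and 9335913 to 11359771 in the control columns.

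**Figure D1:**
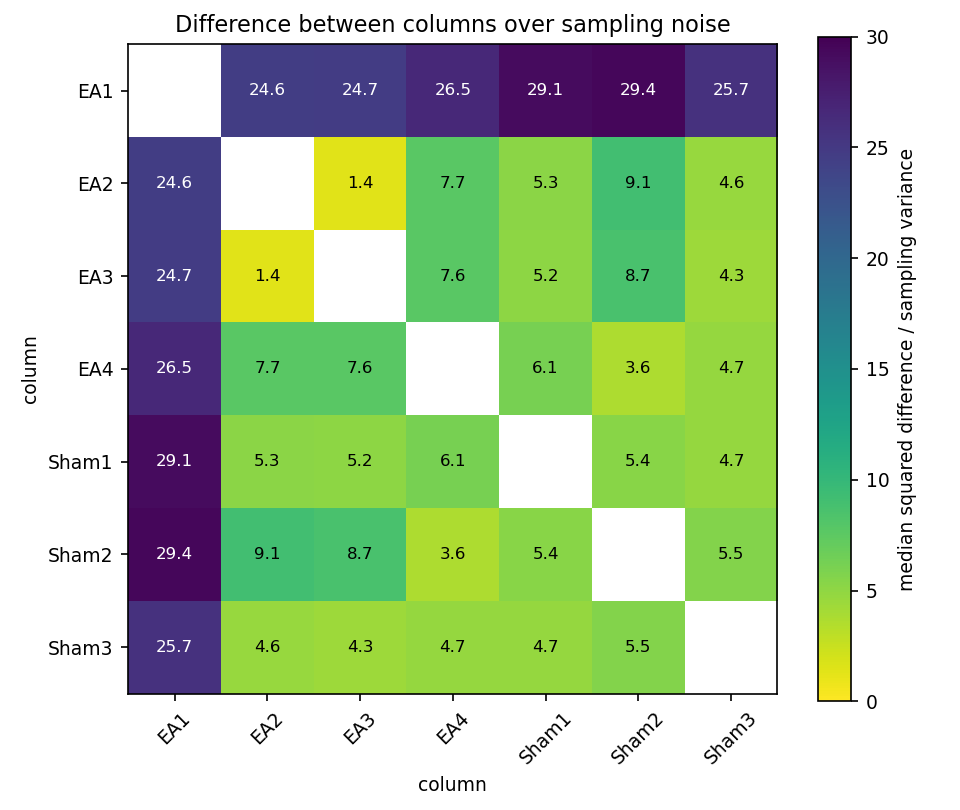
Median squared difference between the counts of each pair of columns divided by the sampling variance, for the 4 electroacupuncture columns (EA) and the 3 control columns (Sham). EA2 and EA3 stand at 1.4, the pairs with EA1 at 24.6 to 29.4, and the other pairs at 3.6 to 9.1.

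EA1 lay above the other 5 samples by more than 1 log2 unit of CPM + 1 (CPM, counts scaled to a common library size with TMM factors) for 960 genes and below them for 555. In each of the other samples such genes numbered 6 to 25 in either direction. The 8 genes with EA1 farthest above the other samples were of 2 kinds, namely genes of striatal spiny neurons and genes of MHC class II, which present antigen on immune cells. Drd2, the dopamine D2 receptor, measured 151, 0.765, 1.19 and 0.527 CPM in EA1, EA2, EA3 and EA4 and 0.825, 0.909 and 0.458 CPM in Sham1, Sham2 and Sham3. Adora2a, an adenosine receptor of the same neurons, measured 191, 2.64, 2.38 and 4.22 CPM in EA1 to EA4 and 2.47, 3.3 and 2.66 CPM in Sham1 to Sham3. Penk, the precursor of enkephalin peptides, stood at 1250.3, 37.5, 40 and 26.7 CPM against 29.8, 30.1 and 34 CPM. Rgs9, a striatal brake on G-protein signalling, and Gpr6, an orphan receptor of striatal neurons, reached 529 and 82 CPM in EA1 against at most 9.17 and 1.28 CPM in the other 5 samples. Cd74, the chaperone of MHC class II, measured 831, 15.7, 17 and 11.6 CPM in EA1 to EA4 and 7.97, 8.18 and 11.9 CPM in the controls. The class II chains RT1-Ba and RT1-Da reached 197 and 145 CPM in EA1 against at most 4.4 and 3.39 CPM elsewhere in these groups. For all 8, EA2, EA3 and EA4 lay among the controls or close to them. The sum of MCAO1 and MCAO2 lay between these columns and EA1 for all 8, as at 13.3 CPM for Drd2, 80.4 CPM for Rgs9 and 90 CPM for Cd74. The sum of MCAO3 and MCAO4 measured 2.41, 9.25 and 12.7 CPM for these 3 genes.

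The 8 genes with EA1 farthest below the other samples include several of excitatory forebrain neurons. Neurod6, a transcription factor of cortical and hippocampal pyramidal neurons, measured 5.29, 242, 235 and 245 CPM in EA1 to EA4 and 369, 240.3 and 307 CPM in Sham1 to Sham3. Nrn1, the activity-induced growth factor neuritin, measured 8.24, 270.4, 267 and 304 CPM against 306, 288 and 293 CPM. Robo3, an axon guidance receptor, measured 0.868, 84.7, 92.7 and 112 CPM against 213, 226 and 97.2 CPM. Within the 2 groups EA1 alone was low for these, and the other electroacupuncture columns overlapped the controls or lay at their lower edge. The model was also low for Neurod6, at 39.1 and 70.3 CPM. Its 2 samples were apart for Nrn1 (50.2 and 280 CPM) and Robo3 (3.32 and 99.2 CPM). Mas1, a receptor for angiotensin-(1-7), Shisa6, an auxiliary subunit of AMPA receptors, Bhlhe22, a transcription factor of neuronal fate, Hapln4, a link protein of perineuronal matrix, and Slc9a4, a sodium/proton exchanger, completed the 8. Their EA1 values were 0.868, 2.17, 4.6, 10.4 and 1.13 CPM against at least 58.2, 103, 142, 296 and 49.6 CPM in the other 5 samples. Both model samples were also below those 5 samples, at 4.23 and 5.36, 16.8 and 6.35, 22.3 and 40.1, 30.9 and 136, and 5.68 and 1.92 CPM.

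By the mean level of whole lists, markers of striatal and hippocampal neurons also set EA1 apart from the other samples of these groups. Neocortical, thalamic with hypothalamic, and midbrain with hindbrain lists did not by this mean, although many of their members did in opposite directions. The level of a list is the mean over its tested members of the difference from the control mean in log2(CPM + 1). The 17 markers of striatal spiny neurons lay at 4.01 in EA1, 0.20 in EA2 and EA3 together and -0.29 in EA4, against -0.24 to 0.15 in the controls. All 17 were higher in estimate, 8 of them with an unadjusted p under 0.05 by edgeR (2.71% of all genes), and 1 had no overlap of the groups, 5.88% of the list where all genes had 5.98%. Their median log2 fold change was 3.34 with EA1 and 0.07 without it. The 10 tested hippocampal markers lay at -1.43 in EA1, -0.12 and -0.21 in the other electroacupuncture samples and -0.07 to 0.09 in the controls. Prox1, which specifies granule neurons of the dentate gyrus, measured 9.8, 61.6, 61.1 and 61.1 CPM in EA1 to EA4 and 96, 70.8 and 62.7 CPM in Sham1 to Sham3. The groups did not overlap, although within them EA1 alone was far below, and the model measured 6.38 and 3.83 CPM. Levels in EA1 were -0.04 for 15 neocortical, -0.05 for 11 thalamic and hypothalamic, and 0.07 for 11 midbrain and hindbrain markers, against -0.15 to 0.16 over these lists in the controls. These means join opposite shifts. EA1 lay above the other 5 samples for 6 neocortical markers and below them for 7. It lay above for 4 and below for 3 thalamic and hypothalamic markers, and above for 4 and below for 2 midbrain and hindbrain markers. Glutamatergic markers lay at -2.36 in EA1 against 0.16 and -0.02, and pan-neuronal markers at -1.21 against 0.10 and -0.11. Slc17a7, the vesicular glutamate transporter of cortical and hippocampal neurons, measured 29.1, 599.7, 593 and 337 CPM against 521, 342 and 443 CPM in the controls. Neurons, astrocytes, microglia and oligodendrocytes had markers above 0 in every column, which fits the label of brain tissue. In such bulk tissue, fewer cells of a type and less RNA per cell cannot be told apart. The part of these regional markers in any result below was not tested, and the results without EA1 stand beside them.

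**Figure D2:**
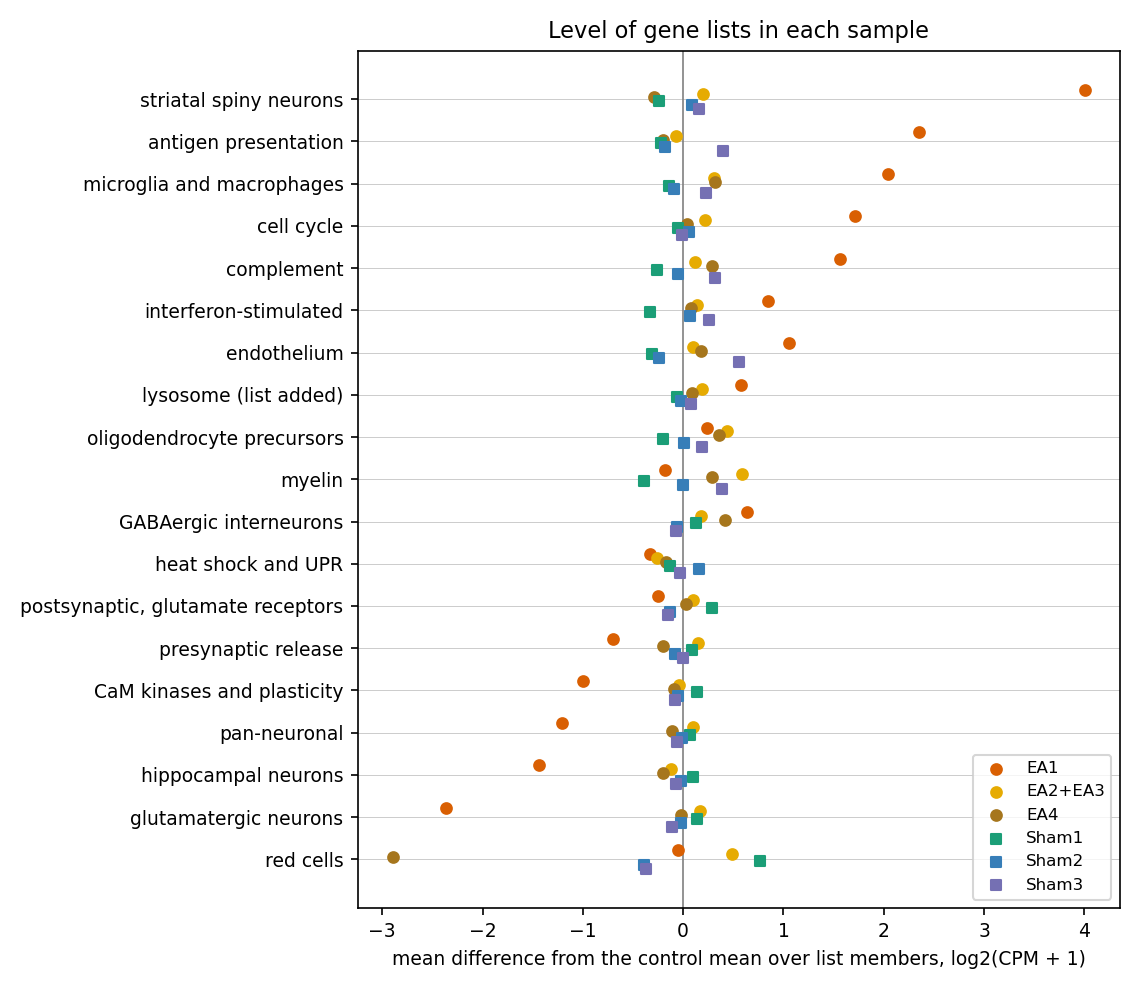
Level of 19 gene lists in each sample, as the mean difference from the control mean in log2(CPM + 1) over list members; circles are electroacupuncture samples, with EA2 and EA3 summed, and squares are controls. EA1 lies apart in both directions, from 4.01 for striatal neurons to -2.36 for glutamatergic neurons, and EA4 lies at -2.90 for red cells. For oligodendrocyte precursors all 3 electroacupuncture samples lie between 0.23 and 0.44, against at most 0.19 in the controls. Microglia, GABAergic interneurons and lysosome also have all 3 above every control. The heat shock and hippocampal lists have all 3 below every control.

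Another division of the columns crossed the groups. Of 8434 genes with at least 20 CPM in a control, 75 differed by 20-fold or more between control columns, 68 did so between EA4 and the sum of EA2 and EA3, and 54 did so in both. By these genes EA1, EA4 and Sham1 fell on one side and EA2, EA3, Sham2 and Sham3 on the other. Gria3, an AMPA receptor subunit, measured 102, 1.62, 2.3 and 164 CPM in EA1 to EA4 and 265, 0.909 and 1.01 CPM in Sham1 to Sham3. Zdhhc19, a palmitoyltransferase, showed the opposite direction, with 1.56, 645, 628 and 0.211 CPM against 0.367, 573 and 551 CPM. Crebbp, a histone acetyltransferase used by most cells, measured 69.9, 2.21, 3.32 and 65.1 CPM and 78.2, 2.96 and 2.11 CPM, and Cops4, a subunit of the widely used COP9 signalosome, 86.4, 0, 0 and 94.4 CPM and 84.6, 0 and 0 CPM. Such genes are near 0 in some columns of a group and well expressed in others, and the cause was not tested. A fit with this division as a term, added after seeing the data and limited to these 2 groups, called 0 of 14678 genes with edgeR and put 157 higher and 61 lower at an unadjusted p under 0.05.

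**Figure D3:**
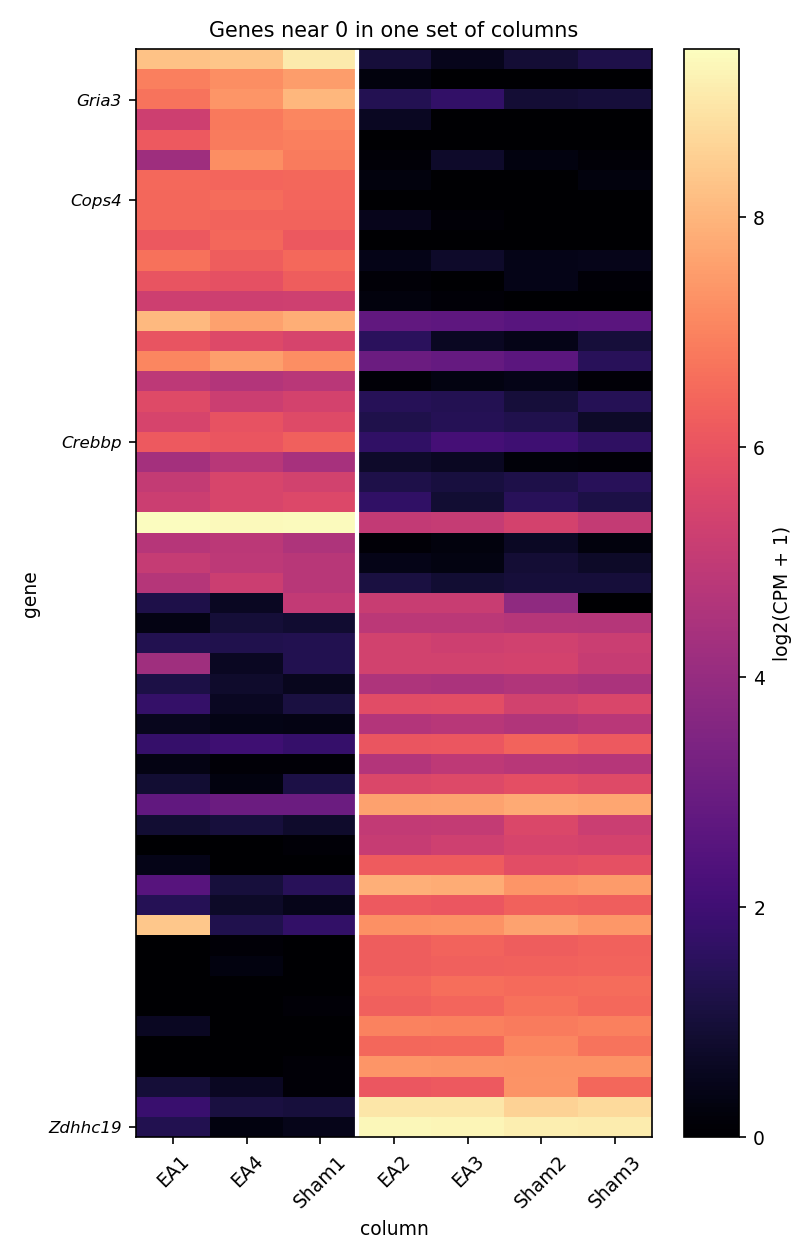
Level in log2(CPM + 1) of the 54 genes that differ by 20-fold or more both between control columns and between EA4 and the sum of EA2 and EA3, 1 row per gene with the 4 genes described above labelled, and with columns ordered by the 2 sides of the division. For nearly all genes EA1, EA4 and Sham1 share a level and EA2, EA3, Sham2 and Sham3 share another, as for Gria3 at 102 to 265 CPM against 0.909 to 2.30 CPM.

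Among the genes with no overlap between the groups and the smallest unadjusted p were several of the lysosome, the acidic organelle that breaks down proteins, lipids and sugars. Scarb2, the lysosomal membrane protein that carries glucocerebrosidase to lysosomes, measured 30.3, 22.3, 20.1 and 21.4 CPM in EA1, EA2, EA3 and EA4 and 12.6, 11.6 and 15.2 CPM in Sham1, Sham2 and Sham3. Its means were 24.3 ± 5.18 CPM with electroacupuncture and 13.2 ± 1.86 CPM in controls (SD, n = 3 each), a log2 fold change of 0.88 (SE 0.20). The lowest electroacupuncture column was above the highest control, and the model measured 11.7 and 10.7 CPM in its 2 samples. Ids, which removes sulfate from heparan and dermatan sulfate, measured 144, 106, 101 and 114 CPM with electroacupuncture and 76.7, 79.1 and 73.4 CPM in controls, a log2 fold change of 0.66 (SE 0.15). EA1 was the highest, and the model lay within the electroacupuncture range at 121 and 105 CPM. Arsb, another lysosomal sulfatase, measured 36.1, 24.9, 23.6 and 22.1 CPM against 13.2, 13.1 and 16.7 CPM (log2 fold change 0.94, SE 0.24). Npc1, which exports cholesterol from lysosomes, measured 56.8, 56.7, 57 and 49.4 CPM against 30.4, 33.1 and 44.9 CPM, and here Sham3 lay close under EA4. Stx7, a fusion protein of late endosomes and lysosomes, measured 70.2, 72.4, 49.1 and 82.6 CPM against 44.8, 48.3 and 36.9 CPM, with EA3 within 1 CPM of Sham2 although EA2 was far above it.

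A list of lysosomal genes was then drawn up from textbook knowledge after these values had been seen, so it gives a description without a test. Of its 43 tested members 34 were higher and 9 lower in estimate, 6 had an unadjusted p under 0.05 by edgeR, and 6 had every electroacupuncture sample above every control. Both are 14% of the list, where 2.71% and 5.98% of all genes did so in this direction. Those 6 were Scarb2, Npc1, Ids, Arsb, Idua, which cuts iduronic acid from glycosaminoglycans, and Manba, a lysosomal mannosidase. Idua measured 133, 110.4, 108 and 142 CPM against 92.8, 106 and 106 CPM. Manba measured 9.02, 5.44, 7.06 and 6.43 CPM against 4.77, 5.68 and 5.5 CPM, so that column EA2 by itself lay below Sham2 and Sham3. The median log2 fold change of the list was 0.30, and 0.14 without EA1. Its level was 0.58 in EA1, 0.19 in EA2 and EA3 together and 0.09 in EA4, against -0.06 to 0.08 in the controls, so EA4 lay at the upper edge of the control range. Genes of the list that microglia use most, such as the protease cathepsin S (Ctss, 599, 218, 223 and 209 CPM against 144, 138 and 229.9 CPM), were highest in EA1, where microglial markers were also highest.

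**Figure D4:**
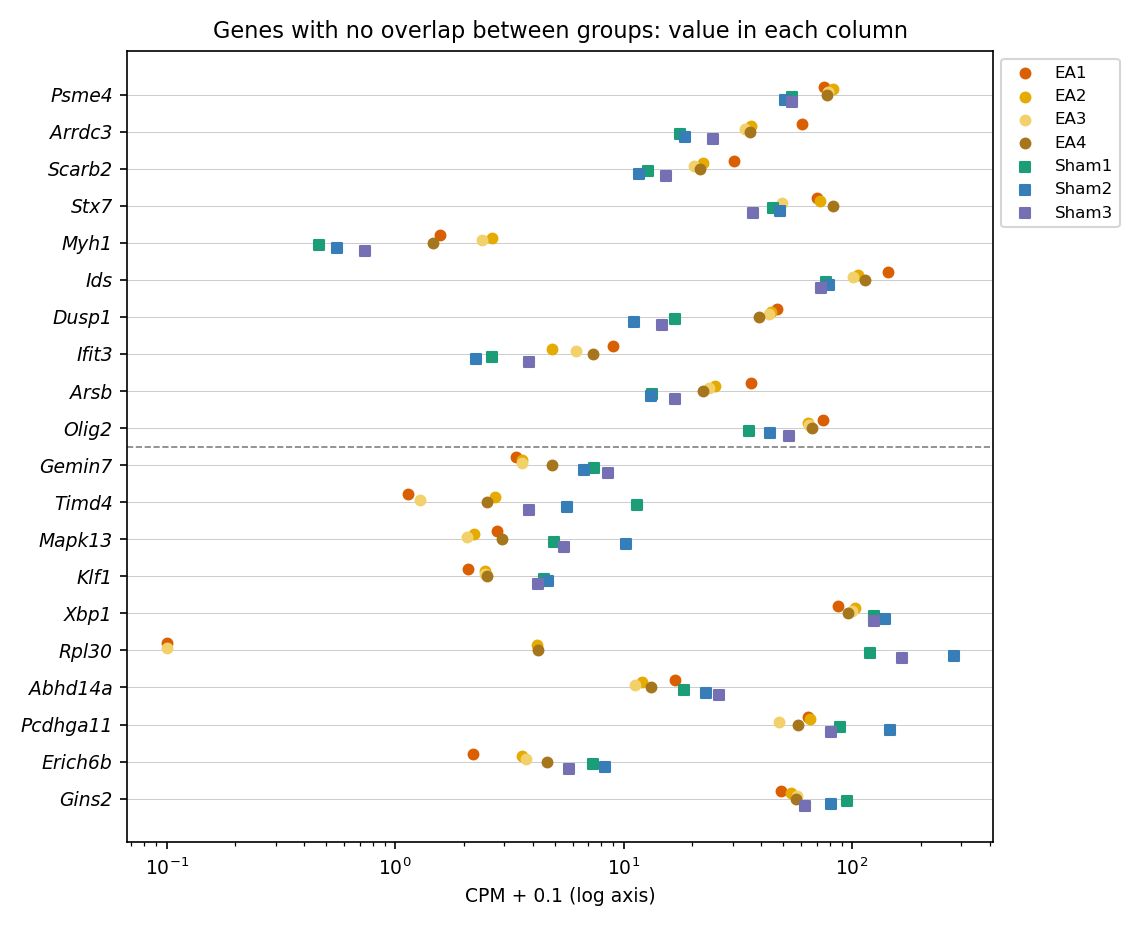
Level of the 10 genes higher (above the dashed line) and the 10 lower (below it) in electroacupuncture with the smallest unadjusted p among genes with no overlap of groups, in CPM + 0.1 on a log axis, 1 point per column. For Psme4 the 4 electroacupuncture columns sit at 75 to 82.2 CPM and the 3 controls at 51 to 54.8 CPM, while Rpl30 spans 0 to 4.11 CPM against 120.1 to 279 CPM.

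Other genes higher in every electroacupuncture column came from several functions. Psme4, the proteasome activator PA200, had the smallest unadjusted p of this set. It measured 75, 82.2, 78.8 and 77.5 CPM in EA1 to EA4 and 54.5, 51 and 54.8 CPM in Sham1 to Sham3, with means of 77.6 ± 2.76 and 53.5 ± 2.09 CPM (SD, n = 3 each). The log2 fold change was 0.54 (SE 0.11, edgeR adjusted p = 0.843), and the model samples lay between the groups at 65.6 and 56.1 CPM. Arrdc3, an arrestin-like adaptor that brings receptors to ubiquitin ligases, measured 60.6, 36, 33.7 and 35.5 CPM against 17.6, 18.4 and 24.5 CPM, with EA1 far above the other columns. Myh1, a myosin heavy chain of skeletal muscle, was low throughout, at 1.47, 2.55, 2.3 and 1.37 CPM against 0.367, 0.455 and 0.641 CPM. Its groups did not overlap, and both model samples were in the electroacupuncture range at 1.93 and 2.3 CPM.

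Dusp1, an immediate early gene whose phosphatase switches off MAP kinases, had a log2 fold change of 1.62 (SE 0.40, edgeR adjusted p = 0.843). It measured 47, 44.2, 43.4 and 38.9 CPM in EA1 to EA4 and 16.7, 11 and 14.6 CPM in Sham1 to Sham3, means of 43.3 ± 4.08 and 14.1 ± 2.86 CPM (SD, n = 3 each). The 4 electroacupuncture columns were close together and all were more than 20 CPM above the highest control, while the 2 model samples were far apart at 20.2 and 65.5 CPM. Dusp1 is switched on in many cells by stress, glucocorticoids and cyclic AMP, and its promoter is shown because it holds the cyclic AMP response element TGACGTCA. The sequence is the 250 bases before the annotated start in the RefSeq annotation of GRCr8, on the plus strand at chr10:17184603-17184852, with the element in capitals.
Dusp1: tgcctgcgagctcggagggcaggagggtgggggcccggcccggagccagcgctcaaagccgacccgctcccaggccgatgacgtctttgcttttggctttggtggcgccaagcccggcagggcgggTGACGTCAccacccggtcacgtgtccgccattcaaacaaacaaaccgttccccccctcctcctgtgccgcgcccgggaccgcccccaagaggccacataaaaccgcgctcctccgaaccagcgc
Searched on both strands, TGACGTCA occurred once in this window and in 1.7% of 27457 rat promoters of this length. Of 15 immediate early genes with a promoter in the table, 4 held it, namely Btg2, Dusp1, Ier2 and Jund. A match is a description of letters and not a binding site.

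The other immediate early genes, which neurons and glia switch on within minutes of a stimulus, were divided in direction. Of 20 tested members, Dusp1 included, 10 were higher and 10 lower in estimate, with a median log2 fold change of 0.02. An unadjusted p under 0.05 by edgeR was found for Dusp1 and Fosb, both higher, and for Arc, lower. Of all genes, 2.71% were higher and 0.956% lower at that threshold. Fos, the classical marker of recent activity, measured 8.76, 29.6, 30.9 and 3.9 CPM in EA1 to EA4 and 4.58, 5.68 and 6.32 CPM in Sham1 to Sham3, so that EA2 and EA3 were high and EA4 was below all controls. Fosb, its relative, had a log2 fold change of 1.54 (SE 0.58) and measured 18.5, 13.6, 11.9 and 2.85 CPM against 4.03, 3.3 and 4.4 CPM, with EA4 again below the controls. Arc, which acts at synapses and removes AMPA receptors, was the member with every electroacupuncture sample below every control, at 54.6, 104, 108 and 75.2 CPM against 130.1, 156 and 114 CPM (log2 fold change -0.76, SE 0.25, edgeR unadjusted p = 0.0155). Its groups did not overlap, with EA2 and EA3 nearest to Sham3.

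Chaperones and genes of the unfolded protein response, the reaction of the endoplasmic reticulum to misfolded proteins, were lower in estimate for 15 of 17 tested members. Every electroacupuncture sample lay below every control for 7 of them, where 4.88% of all genes did so. An unadjusted p under 0.05 by edgeR was found for 2, both lower, where 0.956% of all genes were lower at that threshold. Xbp1, a transcription factor that directs this response, measured 86.3, 103, 99.7 and 95.9 CPM in EA1, EA2, EA3 and EA4 and 125, 139.7 and 125 CPM in Sham1, Sham2 and Sham3, means of 94.4 ± 7.51 and 130.0 ± 8.45 CPM (SD, n = 3 each). The log2 fold change was -0.46 (SE 0.13, edgeR adjusted p = 0.843). Hspa5, the chaperone BiP that senses and refolds proteins in the endoplasmic reticulum, measured 242, 268, 276 and 264 CPM against 364, 425 and 338 CPM, a log2 fold change of -0.53 (SE 0.19). For both genes the 4 electroacupuncture columns were close together and below all 3 controls, with EA1 the lowest. The model lay at 343 and 225 CPM for Hspa5 and 118 and 104 CPM for Xbp1.

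Hspa5 is the standard target of this pathway, and its promoter is shown for the endoplasmic reticulum stress element, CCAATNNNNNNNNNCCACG, in capitals. It is the 250 bases before the annotated start in the RefSeq annotation of GRCr8, on the plus strand at chr3:38452766-38453015.
Hspa5: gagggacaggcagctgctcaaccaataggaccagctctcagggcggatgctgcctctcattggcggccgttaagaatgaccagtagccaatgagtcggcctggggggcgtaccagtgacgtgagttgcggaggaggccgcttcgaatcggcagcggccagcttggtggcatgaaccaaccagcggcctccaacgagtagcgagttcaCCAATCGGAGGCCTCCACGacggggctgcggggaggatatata
On either strand the element matched once in this window and in 0.0765% of 27457 promoters of this length. Of 16 list members with a promoter, 5 held a match, namely Calr, Canx, Hsp90b1, Hspa5 and Xbp1, and 4 of these 5, all but Canx, were among the 7 with no overlap. The list was drawn up around this pathway, so the share of members with the element describes the list and is no result of the comparison.

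The remaining chaperones with no overlap spanned both compartments. Hsp90b1 and Calr, chaperones of the endoplasmic reticulum, measured 342, 363, 351 and 393 CPM against 404, 517 and 457 CPM and 510.4, 601, 597 and 496 CPM against 700.4, 605 and 683 CPM. Hspa8, the constitutive heat shock protein of the cytosol, measured 1149, 1697, 1623 and 1561 CPM against 1799, 1993 and 1967 CPM, with EA1 far below the rest. Hsph1 and Dnajb1, which assist the same family, had log2 fold changes of -0.21 and -0.30, and their highest electroacupuncture columns were close under the lowest control. Hspa1a, the stress-induced heat shock protein, was low and scattered at 1.3, 3.83, 1.28 and 8.75 CPM against 4.86, 8.18 and 5.22 CPM. Herpud1, an element of degradation at the endoplasmic reticulum, was higher in estimate (log2 fold change 0.42) through EA1 at 63.5 CPM, with the other columns at 32.1 to 33.3 CPM and the controls at 28 to 34.7 CPM. The median log2 fold change of the list was -0.30 and was -0.23 without EA1. The list lay at -0.33, -0.26 and -0.17 in EA1, EA2 with EA3, and EA4, against -0.13 to 0.16 in the controls, so EA4 was close to Sham1. Total counts in place of TMM left 5 members with no overlap.

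Oligodendrocyte precursors, the dividing glia that supply new myelin-forming cells, had all 13 tested markers higher in estimate. Every electroacupuncture sample lay above every control for 6 of them, where 5.98% of all genes did so. An unadjusted p under 0.05 by edgeR was found for 5, 38.5% of the list where 2.71% of all genes were higher at that threshold. Olig2, a transcription factor of the lineage, measured 74.9, 64.3, 64.8 and 66.8 CPM in EA1 to EA4 and 35.4, 43.7 and 52.9 CPM in Sham1 to Sham3, means of 68.7 ± 5.44 and 44 ± 8.75 CPM (SD, n = 3 each). Its log2 fold change was 0.64 (SE 0.16, edgeR adjusted p = 0.843), and the model samples lay in the control range at 42.5 and 40.8 CPM. Gpr17, a receptor of precursors about to mature, measured 8.24, 11.4, 12.2 and 12 CPM against 5.77, 6.59 and 6.05 CPM, a log2 fold change of 0.80 (SE 0.23). Here EA1 was the lowest of the electroacupuncture columns, and the model lay below all controls at 4.98 and 3.94 CPM. Pdgfra, the growth factor receptor that keeps precursors dividing, measured 36.7, 35.7, 36.7 and 29.9 CPM against 19.2, 21.4 and 25.8 CPM. Vcan, a matrix proteoglycan, measured 44.2, 35.4, 35.5 and 29.4 CPM against 20.1, 21.1 and 28.8 CPM, with EA4 close above Sham3. Cspg4, the NG2 proteoglycan that pericytes also carry, measured 39, 17.1, 16.2 and 14.9 CPM against 10.2, 8.98 and 14.8 CPM, and EA1 alone was far above the controls. Enpp6, a choline phosphodiesterase of newly forming oligodendrocytes, measured 6.85, 8.08, 9.18 and 6.01 CPM against 5.96, 3.87 and 5.59 CPM, a gap between EA4 and Sham1 that is small beside the spread.

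The precursor list lay at 0.23 in EA1, 0.44 in EA2 with EA3 and 0.36 in EA4, against -0.20, 0.01 and 0.19 in Sham1, Sham2 and Sham3. Its median log2 fold change of 0.28 was 0.45 without EA1. With RLE size factors 4 in place of 6 members had no overlap. Genes of mature myelin were higher in estimate for 14 of 16, with a median of 0.28, and for all 16 without EA1, with a median of 0.47, but 0 had an unadjusted p under 0.05 by edgeR and 0 had no overlap of groups. The myelin list lay at -0.18 in EA1, 0.58 in EA2 with EA3 and 0.28 in EA4, and the controls spread from -0.39 in Sham1 to 0.39 in Sham3. Mag, a myelin adhesion protein, measured 291, 430.0, 426 and 307 CPM in EA1 to EA4 and 156, 235 and 369.7 CPM in Sham1 to Sham3. The groups overlapped, with Sham3 among the electroacupuncture columns.

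**Figure D5:**
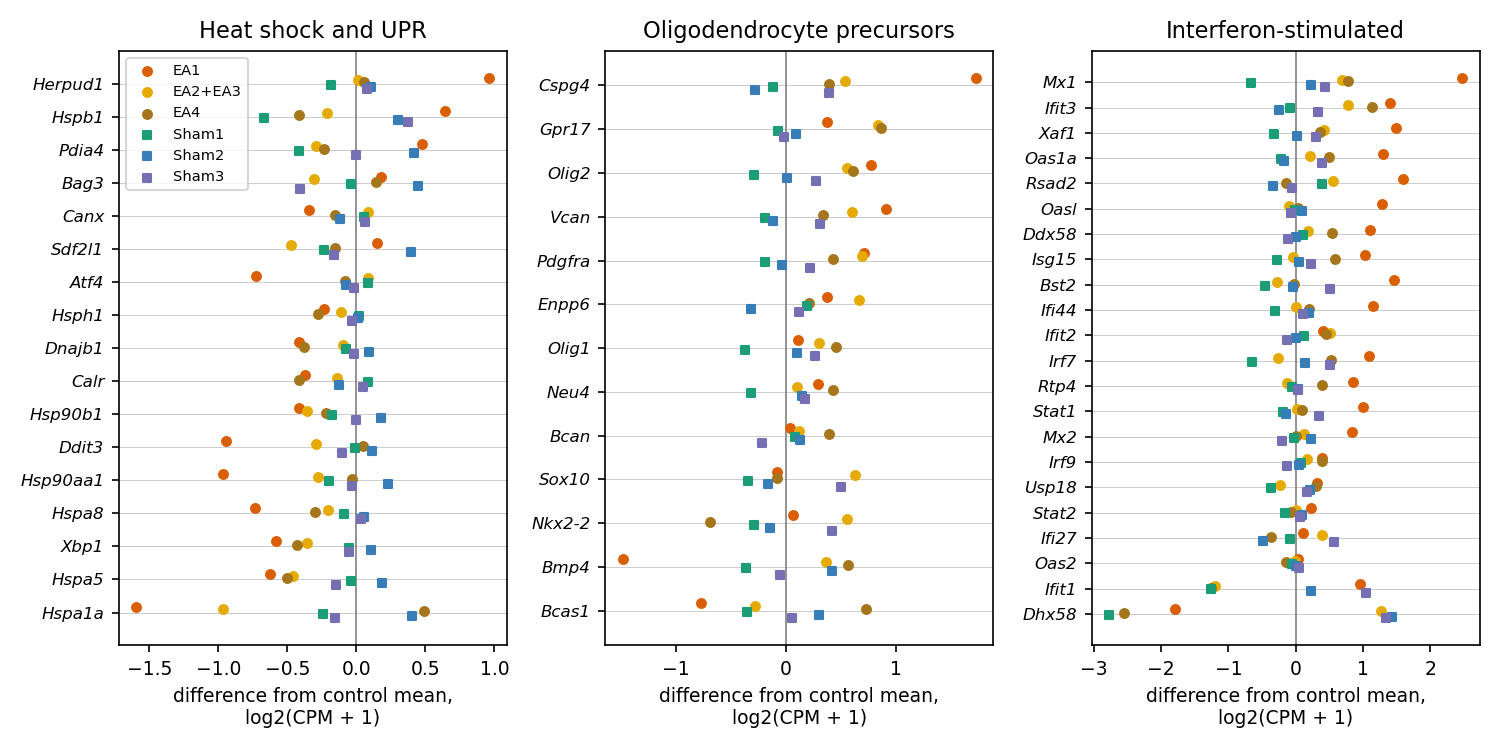
Difference of each sample from the control mean in log2(CPM + 1) for the members of 3 lists, with circles for electroacupuncture samples, EA2 and EA3 summed, and squares for controls. Circles lie left of the squares for 7 of 17 chaperone and unfolded protein response genes, and right of the squares for 6 of 13 precursor markers and 6 of 22 interferon-stimulated genes.

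Interferon-stimulated genes, the antiviral programme that also follows sterile brain injury, were higher in estimate for 19 of 22 tested members. In 6 of them every electroacupuncture sample lay above every control (5.98% of all genes). An unadjusted p under 0.05 by edgeR was found for 2, 9.09% of the list where 2.71% of all genes were higher at that threshold. Ifit3, an interferon-induced protein with tetratricopeptide repeats, measured 8.94, 4.76, 6.12 and 7.28 CPM in EA1, EA2, EA3 and EA4 and 2.57, 2.16 and 3.76 CPM in Sham1, Sham2 and Sham3. Its means were 7.22 ± 1.75 and 2.83 ± 0.83 CPM (SD, n = 3 each), a log2 fold change of 1.34 (SE 0.34, edgeR adjusted p = 0.843). EA2 was the electroacupuncture column nearest to the controls, 1 CPM above Sham3, and the model lay at 7.5 and 12 CPM. Its promoter is shown for the interferon-stimulated response element, GAAANNGAAA, which stands on the minus strand and so appears in capitals as its reverse complement. The window is the 250 bases before the annotated start in the RefSeq annotation of GRCr8, on the plus strand at chr1:241527076-241527325.
Ifit3: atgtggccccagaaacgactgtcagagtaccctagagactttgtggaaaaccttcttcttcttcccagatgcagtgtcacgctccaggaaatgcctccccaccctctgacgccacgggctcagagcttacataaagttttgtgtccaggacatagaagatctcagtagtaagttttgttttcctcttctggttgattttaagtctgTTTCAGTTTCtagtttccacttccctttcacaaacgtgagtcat
The element matched once here on both strands searched, and in 3.29% of 27457 promoters of this length. Of 12 list members with a promoter 8 held it, and of the 4 of these with no overlap of groups 2 did, Ifit3 and Xaf1.

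The other members with no overlap were Ifit2, Mx1, Xaf1, Irf9 and Ddx58. Ifit2, a relative of Ifit3, measured 8.41, 8.42, 9.86 and 8.75 CPM against 6.78, 6.14 and 5.5 CPM, with the 4 electroacupuncture columns close together. At this level, counting error is not small beside the gaps between those columns. Mx1, an antiviral GTPase, measured 11.8, 2.98, 2.47 and 2.95 CPM against 0.458, 1.71 and 2.11 CPM, with EA1 far above the rest and EA3 close above Sham3. Ddx58, the RNA sensor RIG-I, Irf9, a subunit of the transcription factor that interferon activates, and Xaf1, a pro-apoptotic interferon target, each had 1 column inside the control range when EA2 and EA3 were read separately. These were EA2 at 8.5 CPM for Ddx58 and 25.4 CPM for Irf9, and EA3 at 3.32 CPM for Xaf1. Dhx58, another RNA sensor, followed the division of columns that crosses the groups, at 8.41, 75.3, 79.8 and 4.53 CPM and 3.76, 86.5 and 81.7 CPM. The list lay at 0.85 in EA1, 0.14 in EA2 with EA3 and 0.08 in EA4, and the controls spread from -0.33 to 0.26. Its median log2 fold change was 0.51, and 0.10 without EA1. The count with no overlap was 6 either way, 27.3% of the list, where all genes had 8.87% without EA1. Leaving out a sample can hardly make separated groups overlap, so this count could hardly fall and is no support.

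Of 20 tested genes of microglia and macrophages, 19 were higher in estimate, and 18 without EA1, with medians of 1.11 and 0.37. An unadjusted p under 0.05 by edgeR was found for 6, 30% of the list where 2.71% of all genes were higher at that threshold. The list lay at 2.05 in EA1, 0.31 in EA2 with EA3 and 0.32 in EA4, against -0.14, -0.09 and 0.23 in the controls. Tmem119, a surface protein specific to resident microglia, was the member with no overlap of the groups, 5% of the list where all genes had 5.98%. It measured 48.7, 14.8, 13.9 and 14.2 CPM in EA1 to EA4 and 9.17, 9.78 and 7.42 CPM in Sham1 to Sham3, a log2 fold change of 1.55 (SE 0.48), and 0.70 without EA1 (SE 0.17, edgeR adjusted p = 0.9998). Cx3cr1, the microglial fractalkine receptor, measured 14.7, 10.2, 8.33 and 4.75 CPM against 5.13, 3.87 and 4.49 CPM, with EA4 among the controls. C1qa, a chain of complement C1q made by microglia, measured 110.4, 47, 52.1 and 56 CPM against 32.3, 29.2 and 52 CPM, and Sham3 lay among the electroacupuncture columns. C3, the central complement protein, measured 94.6, 17.3, 19.5 and 13.2 CPM against 3.94, 7.84 and 7.7 CPM, a log2 fold change of 2.69 (SE 0.98) with no overlap of groups and EA1 far above. Complement genes were higher in estimate for 16 of 17, with a median of 0.67 that was 0.21 without EA1. Antigen presentation genes were higher for 16 of 17 with all samples, at a median of 0.58, and for 6 of 17 without EA1, at a median of -0.06.

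Genes of dividing cells, endothelium and reactive astrocytes were highest in EA1 as well. Cell cycle genes were higher in estimate for 18 of 20 at a median of 1.21, and 0.18 without EA1. Their level was 1.71 in EA1 against 0.22 and 0.04 in the other electroacupuncture samples. Top2a, a DNA topoisomerase of dividing cells, measured 35.7, 3.15, 2.47 and 2.0 CPM against 1.19, 2.16 and 1.28 CPM. Endothelial genes lay at 1.05 in EA1, 0.10 and 0.18 in the others, and -0.31 to 0.55 in the controls. Reactive astrocyte genes were higher in estimate for 16 of 23, at a median of 0.37, and 0.02 without EA1. Ch25h, an enzyme that makes 25-hydroxycholesterol, was the reactive astrocyte list member above the controls in every column, at 11.1, 4.93, 5.1 and 5.17 CPM against 1.19, 2.73 and 3.3 CPM (log2 fold change 1.56, SE 0.47). Fgfr3, a growth factor receptor of astrocytes, measured 78.6, 57.3, 55.7 and 53.4 CPM against 44.7, 41.7 and 47 CPM without overlap, and astrocyte identity genes were higher in estimate for 10 of 14.

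Synaptic genes, which the study's title addresses, lay closer to the controls in EA2, EA3 and EA4 than in EA1. Of 30 genes of the postsynaptic density and glutamate receptors, 14 were higher and 16 lower in estimate, 0 had an unadjusted p under 0.05 by edgeR, and the median log2 fold change was -0.01. Every electroacupuncture sample lay below every control for 2 of them, the AMPA receptor subunit Gria2 and the obligatory NMDA receptor subunit Grin1. These are 6.67% of the list where all genes had 4.88%, and with RLE size factors the list had 1 such member. Gria2 measured 422, 857, 869 and 897 CPM in EA1 to EA4 and 1149, 980.5 and 964 CPM in Sham1 to Sham3, and Grin1 435, 586, 604 and 587 CPM against 632, 613 and 595 CPM. For Grin1 the gap was small, and EA3 read alone lay above Sham3. Genes of presynaptic release were lower for 21 of 27, at a median of -0.19 and of -0.05 without EA1. GABA receptor genes were lower for 11 of 15, at a median of -0.41 and of -0.13 without EA1.

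Among 29 calmodulin-dependent kinases and plasticity genes, 8 were higher and 21 lower in estimate, with a median of -0.31 that was -0.10 without EA1. The list lay at -1.0 in EA1, -0.04 in EA2 with EA3 and -0.09 in EA4, against -0.08 to 0.14 in the controls. Every electroacupuncture sample lay below every control for 5 members, 17.2% of the list where all genes had 4.88%. The reverse held for 1 member, 3.45% where all genes had 5.98%. Camk2d, the delta chain of calmodulin-dependent kinase II, was the single member with an unadjusted p under 0.05 by edgeR, where 2.71% of all genes were higher at that threshold. It measured 34.5, 29, 26.9 and 20.5 CPM in EA1 to EA4 and 15.1, 16.6 and 19.5 CPM in Sham1 to Sham3, a log2 fold change of 0.70 (SE 0.21). The groups did not overlap, with EA4 close above Sham3, and both model samples were far above either group at 133 and 154 CPM. Camk2b, the beta chain of neurons, was lower in every electroacupuncture sample, at 637, 1168, 1154 and 1168 CPM against 1515, 1360.0 and 1231 CPM, with EA1 far below the others. Adcy1, a calmodulin-stimulated adenylyl cyclase, measured 166, 703, 703 and 669 CPM against 1000.0, 892 and 725 CPM. Bdnf, the growth factor of synaptic plasticity, measured 0.781, 48.4, 50 and 23.3 CPM against 64.4, 31.4 and 47.7 CPM, so EA1 was near 0, EA4 was below the controls and EA2 and EA3 were inside their range.

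Genes of GABAergic interneurons were higher in estimate for 11 of 14, and 4 of them had no overlap of groups, 28.6% of the list where all genes had 5.98%. The list lay at 0.64 in EA1, 0.17 in EA2 with EA3 and 0.42 in EA4, against -0.07 to 0.13 in the controls, and its median log2 fold change of 0.36 was 0.26 without EA1. Among those without overlap, Lhx6, a transcription factor of interneurons from the medial ganglionic eminence, measured 12.8, 11.1, 11.9 and 10 CPM in EA1 to EA4 and 9.62, 8.75 and 8.89 CPM in Sham1 to Sham3, with EA4 close above Sham1. Gad1, which makes GABA from glutamate, measured 319, 138, 137 and 147 CPM against 129, 115 and 127 CPM, with EA1 far above the rest. Slc32a1, the vesicular GABA transporter, measured 125, 32.2, 32.9 and 24.6 CPM against 25.6, 21.6 and 18.5 CPM, and EA4 lay below Sham1. Sst, the neuropeptide somatostatin, measured 121, 140.5, 148 and 146 CPM against 102, 123 and 90.8 CPM, with EA1 just inside the control range. Pvalb, the calcium buffer of fast-spiking interneurons, was low in EA1 alone within the groups, at 9.89, 100.3, 107 and 152 CPM against 105, 149 and 104 CPM. The model measured 37.2 and 183 CPM. Gad2, another member, measured 36.3, 0, 0 and 6.22 CPM in EA1 to EA4 and 3.12, 0 and 0.183 CPM in Sham1 to Sham3. It was thus highest on the side of EA1, EA4 and Sham1 in the division of columns that crosses the groups. It raises the level of the list in those columns. Striatal spiny neurons also use GABA, and several genes of this list were highest in EA1 together with the striatal markers, a link that was not tested.

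Of the 10 genes lower in every electroacupuncture column with the smallest unadjusted p, several were at a few CPM. Mapk13, the delta isoform of p38 MAP kinase, measured 2.69, 2.13, 1.96 and 2.85 CPM in EA1 to EA4 and 4.86, 10.1 and 5.41 CPM in Sham1 to Sham3 (log2 fold change -1.43, SE 0.40). The groups did not overlap, yet both model samples were above all of them at 23.3 and 11.7 CPM. Timd4, a receptor for phosphatidylserine on macrophages, measured 1.04, 2.64, 1.19 and 2.43 CPM against 11.4, 5.57 and 3.76 CPM, and the model was lower still at 0.161 and 0.109 CPM. Klf1, a transcription factor of red cell precursors, measured 2.0, 2.38, 2.38 and 2.43 CPM against 4.4, 4.55 and 4.12 CPM, with little spread within either group. At so few CPM, counting error is not small beside that spread. Gemin7, a subunit of the complex that assembles spliceosomal particles, measured 3.3, 3.49, 3.49 and 4.75 CPM against 7.33, 6.59 and 8.43 CPM. Gins2, part of the helicase that opens DNA for replication, measured 48.9, 54.1, 57.5 and 56.8 CPM against 95.2, 80.7 and 62.4 CPM, a log2 fold change of -0.56 (SE 0.17). Erich6b, Abhd14a, a hydrolase, and Pcdhga11, a clustered protocadherin, had log2 fold changes of -1.05, -0.71 and -0.82. Pcdhga11 belongs to a family whose members share sequence, and the counting rule for reads that match several copies is unknown here, so its values are uncertain.

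A few genes were near 0 in 1 group and not in the other. Rpl30, a ribosomal protein gene with near-identical copies in the genome, measured 0, 4.08, 0 and 4.11 CPM in EA1 to EA4 and 120.1, 279 and 166 CPM in Sham1 to Sham3 (log2 fold change -6.55, SE 1.85, edgeR adjusted p = 0.843). Its rounded counts were 0, 48, 0 and 39 in the electroacupuncture columns and 1310, 2452 and 1814 in the controls. In the model it split between near-identical pairs of columns, with 3005 and 2837 in MCAO1 and MCAO2 and 14 and 18 in MCAO3 and MCAO4. The near-identical columns EA2 and EA3 stood at 48 and 0, so the low counts of Rpl30 are uncertain. The 21 ribosomal protein genes as a list had a median log2 fold change of 0.06. LOC103690016, the gene that DESeq2 called, is named after its values were seen (log2 fold change 9.46, SE 1.27, DESeq2 adjusted p = 1.22e-09). Its rounded counts were 150, 75, 150 and 150 in EA1 to EA4, 0 in all 3 controls, and 225, 150, 150 and 0 in the model columns. Every one of these counts is 0 or a multiple of 75, and EA2 and EA3, otherwise near-identical, differ by 75. MCAO3 and MCAO4, also near-identical, stand at 150 and 0. Counts in such steps do not behave as counts of single reads, which DESeq2 assumes, so its p-value is unreliable for this gene. The edgeR test did not call it. RGD1564382, also named after its values were seen, had 14, 37, 38 and 39 counts in EA1 to EA4, 0 in the controls, and 7 counts in 1 of the 4 model columns.

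Single samples also stood apart for blood and choroid plexus. Red cell genes were lower in estimate for 7 of 8, and the list lay at -2.90 in EA4 against 0.48 and -0.05 in the other electroacupuncture samples and -0.39 to 0.76 in the controls. Hba1, an alpha chain of hemoglobin, measured 3151, 2619, 2776 and 79.8 CPM in EA1 to EA4 and 4119, 1503 and 2764 CPM in Sham1 to Sham3, so EA4 alone was low. Ttr, the thyroid hormone carrier made in the choroid plexus, measured 35.6, 3.23, 3.49 and 13.6 CPM against 86.4, 4.55 and 1344 CPM, so Sham3 and, less so, Sham1 were high. The part of blood and choroid plexus in other differences was not tested.

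Without EA1, edgeR called 0 of 15275 genes and put 143 higher and 110 lower at an unadjusted p under 0.05, with a smallest adjusted p of 0.9998. Arrdc3, Psme4, Myh1 and Gpr17 were then among the 8 named genes higher in EA2, EA3 and EA4, with log2 fold changes of 0.80, 0.56, 1.97 and 0.95. Ptp4a1, a membrane-bound phosphatase, measured 26.6, 56, 48 and 36.7 CPM in EA1 to EA4 and 17.2, 22.7 and 24.4 CPM in Sham1 to Sham3, with EA1 nearest to the controls (log2 fold change without EA1 1.05, SE 0.25). Grhl1, a transcription factor of epithelia, measured 1.3, 13.4, 16 and 12.9 CPM against 5.22, 6.71 and 4.21 CPM, so EA1 lay below all controls and the other columns above them. Unc93a, a membrane protein, measured 2.43, 13.5, 12.4 and 10.1 CPM against 3.39, 2.39 and 0.825 CPM, with EA1 inside the control range. The eighth, NEWGENE_1582994, had a log2 fold change of 1.86.

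On the lower side, Mrpl1, a protein of the mitochondrial ribosome, measured 10.8, 0, 0 and 0 CPM in EA1 to EA4 and 11.4, 5.8 and 4.67 CPM in Sham1 to Sham3, so 3 electroacupuncture columns were at 0 while EA1 was in the control range. Slc18a1, a vesicular monoamine transporter, measured 10.8, 4.59, 4.51 and 3.69 CPM against 12.6, 10.8 and 5.95 CPM, and Ido2, an enzyme of tryptophan breakdown, 1.04, 0.085, 0 and 0.105 CPM against 0.275, 4.21 and 3.39 CPM. EA1 overlapped the controls for both, and Sham1 was near the electroacupuncture columns for Ido2. Zfyve26, a protein of lysosome reformation, measured 21.4, 18.8, 16.9 and 16.9 CPM against 21.9, 26.5 and 27.7 CPM, with EA1 just under Sham1. Klhdc7a, Trim45, a ubiquitin ligase, and Pla2g5, a secreted phospholipase, had log2 fold changes of -0.84, -0.95 and -2.01 without EA1, and Abhd14a -0.87.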

How the data were processed

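RNA from rat brain tissue was poly(A)-selected and sequenced, per the labels' protocols. The values the authors deposited are expected counts, that is, estimated and partly fractional counts per gene without normalization, in 18804 rows and 11 columns. The submitters' processing notes name DESeq2 1.16.1, featureCounts 1.5.0-p3, HISAT2 2.0.5 and StringTie 1.3.3b. For each tool's role, the genome build and the counting of reads shared between genes, nothing is given in the sources used here. Values of genes with near-identical copies are uncertain for that reason. Column names give the group and not the sample, and 0 columns were left unused.

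From these files, the 4 symbols on 2 rows were summed, giving 18800 symbols, and all values were then rounded to whole numbers. Columns of 1 group whose median squared difference was under 2 times the sampling variance, over genes whose 2 counts summed to 20 or more, were summed and counted as 1 sample. This applied to EA2 with EA3 and to both pairs of model columns. All 8 resulting samples of the 3 groups entered 1 fit in edgeR 4.0.16 under R 4.3.3, with TMM scaling, the default expression filter, a robust quasi-likelihood F test (two-sided) and Benjamini-Hochberg adjustment over 15487 genes. Residual degrees of freedom were 5, and the common biological coefficient of variation was 36.8%. DESeq2 1.42.0, other scalings and filters, and leaving out each sample were alternatives. The scripts were tested on simulated data.

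The comparison and the 37 gene lists were chosen with earlier results of these data known, and the lysosome list was added after values were seen. Lists are described by counts and medians, without a test. Named genes are the 10 in each direction with the smallest unadjusted p among annotated symbols with a mean of at least 1 CPM and no overlap of the groups (none passed the adjusted threshold), up to 3 members per list by smallest p, 8 in each direction by the first rule without EA1, and the 8 highest and 8 lowest in EA1 alone with at least 5 CPM. Other names were chosen after their values were seen. Some genes that these rules name are not reported here, and they remain in the counts and medians of their lists. Promoters are from RefSeq (GRCr8), matched by symbol. Of the 18800 symbols, 16024 are current RefSeq names, 622 are synonyms and 2154 had no match. Total counts per sample were 9335913 to 23835724. Counting error is a larger part of the spread at low CPM, and for genes at a few CPM it can equal or exceed the spread between samples.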

Additional observations from a re-analysis of the deposited data

How the results depend on the processing

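The count of called genes was 0 in each of 17 alternatives except DESeq2, which called 1 gene, higher. No paired analysis was possible because the columns carry no number that ties them to the labelled samples. Leaving out 1 sample moved the genes at an unadjusted p under 0.05 by edgeR to between 143 and 1002 higher and 56 to 399 lower, with the highest counts without EA4 and the fewest higher without EA1. With all 11 columns as separate libraries they were 628 and 373, and without a filter 468 and 178. The 20 genes chosen over all samples kept their sign in every alternative. They were chosen for no overlap of the groups, so this follows largely from the choice and is no support. Of 2416 values of 144 genes named by rule under alternatives, 2409 kept their direction and 7 turned, each without EA1. Over fits without 1 sample, log2 fold changes ran from -0.36 to 3.72 for Foxp2, -0.026 to 0.29 for Rplp1, -0.87 to 4.97 for RT1-Ba, -0.24 to 6.12 for RT1-Da and -0.67 to 4.25 for Sprr1a, each lowest without EA1, and from -1.23 to 0.0075 for Hapln4 and -1.10 to 0.031 for Slc9a4, each highest without EA1. Of 646 list medians 27 moved by at least the SD of the list mean over the 3 electroacupuncture samples, in 13 lists. Of the 27, 8 moved without EA1. EA1 itself widens this SD, so the count understates how far lists rest on EA1. Antigen presentation did not count as moved, though its median went from 0.58 to -0.06 without EA1. The causes were not tested. With 3 samples a group, and EA1 far from the rest, differences of the size given here, apart from LOC103690016 with DESeq2, could not be told from the spread. For that gene, counts in steps of 75 leave the DESeq2 p-value unreliable.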

Other observations

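Stress hormone, vascular and mitochondrial heat shock genes outside the comparisons above also showed differences by column. Sgk1 was named by rule as a member of its list, and the other genes were chosen after their values were seen. Apold1, an immediate early gene of endothelium, measured 40.0, 24.0, 24.7 and 16.9 CPM in EA1 to EA4 and 4.95, 5.68 and 5.41 CPM in Sham1 to Sham3. All electroacupuncture columns were above all controls, and the model samples were apart at 7.34 and 46.8 CPM. Klf2, a transcription factor of endothelium under flow, measured 23.6, 14.6, 14.9 and 15.2 CPM against 6.51, 8.18 and 9.25 CPM. Hspa9, the mitochondrial heat shock protein, was higher at 63.7, 58.9, 56.1 and 50.7 CPM against 42.2, 40.8 and 34.5 CPM, a direction opposite to the chaperones of the endoplasmic reticulum. Sgk1, a kinase that glucocorticoids switch on, split the electroacupuncture columns at 231, 86.7, 81.0 and 258 CPM against 61.8, 81.7 and 87.9 CPM, so that EA1 and EA4 were high and EA2 and EA3 lay among the controls. None of these passed edgeR's adjusted threshold.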
